A study of Mus musculus with 18 samples.

Results

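Sterols and long-chain fatty acids are built from cytosolic acetyl-CoA by 2 enzyme routes, and the 34 genes described here cover both. They were taken by gene symbol from the 53465 rows of the deposited count table, and every symbol was found. The 34 genes were 5 regulators (Srebf1, Srebf2, Scap, Insig1 and Insig2), 18 enzymes of sterol synthesis (Acat2, Hmgcs1, Mvk, Pmvk, Mvd, Idi1, Fdps, Fdft1, Sqle, Lss, Cyp51, Tm7sf2, Msmo1, Nsdhl, Hsd17b7, Ebp, Sc5d and Dhcr7), 1 sterol carrier (Stard4), and 10 enzymes of fatty acid synthesis, desaturation and elongation (Acly, Acaca, Fasn, Scd1, Scd2, Elovl1, Elovl5, Elovl6, Fads1 and Fads2).

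RNA was sequenced from microglia and macrophages sorted out of the contused spinal cord of 9 adult female C57BL/6J mice, aged 8 to 10 weeks. At 48 h after injury each mouse received an intraspinal injection of PBS, of 100 ng of recombinant IL-13 (rIL-13) or of 100 ng of recombinant IL-4 (rIL-4), and cells were taken 24 h later. Microglia were gated as CD45low and macrophages as CD45high, both CD11b+ and F4/80+, and each mouse gave 1 library of each cell type, so that the 6 groups held 3 mice each and 18 libraries in all. All mice were injured and injected, so the PBS groups are injured controls and no uninjured cells enter any comparison.

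The SREBP transcription factors, encoded by Srebf1 and Srebf2, are held in the endoplasmic reticulum by the escort protein SCAP together with the INSIG proteins while sterol is plentiful. When sterol falls they are released, processed and carried to the nucleus, where they switch on most genes of both routes, Insig1 included. Microglia and macrophages at a spinal cord lesion take up myelin debris, which is rich in cholesterol, and IL-4 and IL-13 are known to signal through a shared receptor chain and STAT6.

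Libraries held 35961305 to 45849829 counts. Chil3, a marker of the response to these cytokines, lay between 50.4 and 251 CPM (counts per 1e6 counts, scaled for library composition by TMM) in PBS microglia and between 11482 and 20630 CPM in rIL-4 microglia. The 12 microglia markers summed to 6948 to 12503 CPM in PBS microglia and to 3508 to 4943 CPM in PBS macrophages. Tmem119, a defining microglial gene, was also found in the macrophage gate, with a median of 198 CPM with PBS and 14.0 CPM with rIL-4. The microglial gate held transcripts of vascular and stromal cells, since the 12 fibroblast and pericyte markers summed to 262 to 8050 CPM in microglia and to 5.7 to 31.0 CPM in macrophages. In these bulk libraries fewer cells of a type and less RNA per cell cannot be told apart.

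Upstream sequences are shown for 3 members. Mvd was the member that rose with both cytokines in macrophages, Insig1 was the other member that rose there, and Hmgcs1 held the sole sterol regulatory element found. RefSeq (GRCm38.p6) gave promoter windows for 27 of the 34 members. Fads1, Fdft1, Fdps, Scd1, Scd2, Sqle and Stard4 had none. Each sequence below is the 250 bases before the RefSeq start site, read 5′ to 3′ on the strand of the gene, with matches to CCAAT (or ATTGG on the other strand) and to TCACNCCAC in capitals. Mvd lies on the minus strand at chr8:122443423-122443672, Insig1 on the plus strand at chr5:28071162-28071411 and Hmgcs1 on the plus strand at chr13:119690101-119690350. The GENCODE gene model of Insig1, whose position is given further on, starts inside the stretch shown.
Mvd: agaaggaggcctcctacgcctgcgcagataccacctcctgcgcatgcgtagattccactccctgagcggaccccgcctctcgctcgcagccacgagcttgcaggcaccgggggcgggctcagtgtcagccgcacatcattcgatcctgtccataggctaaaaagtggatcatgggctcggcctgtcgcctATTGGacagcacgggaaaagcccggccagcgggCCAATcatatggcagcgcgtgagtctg
Insig1: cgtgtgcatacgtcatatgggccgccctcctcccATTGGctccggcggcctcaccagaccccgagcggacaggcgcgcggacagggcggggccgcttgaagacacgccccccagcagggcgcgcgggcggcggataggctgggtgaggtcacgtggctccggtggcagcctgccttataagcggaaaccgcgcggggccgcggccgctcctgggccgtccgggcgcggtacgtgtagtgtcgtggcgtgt
Hmgcs1: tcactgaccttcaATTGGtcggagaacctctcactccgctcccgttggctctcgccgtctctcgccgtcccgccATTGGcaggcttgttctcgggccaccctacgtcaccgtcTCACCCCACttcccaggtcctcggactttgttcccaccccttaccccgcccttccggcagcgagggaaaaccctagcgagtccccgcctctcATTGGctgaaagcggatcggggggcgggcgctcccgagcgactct

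CCAAT is the box bound by NF-Y, a factor known to work beside SREBP, and TCACNCCAC is one spelling of the sterol regulatory element. Searched on both strands of the full 300-base windows, CCAAT was present in 23 of the 36 windows of the members (63.9%) and in 37.4% of all 32851 windows. Of the members with a window, 22 held it, Mvd and Insig1 among them, and the Mvd sequence held 2 matches. TCACNCCAC was found in 1 member window, that of Hmgcs1, and in 1.24% of all windows. CACGTG, an E-box that reads the same on both strands, was present in 7 member windows (19.4%) and in 7.15% of all windows. TTCNNNNGAA, a spelling bound by STAT6, was found in 2 member windows (5.56%), those of Elovl1 and Srebf1, and in 6.95% of all windows. No match of one motif overlapped a match of another in the members' windows, and these counts describe letters, not occupancy.

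Levels differed widely among the members. Per kilobase of exon, the highest mean levels in PBS microglia were those of Acly (45.5 CPM per kb), which makes cytosolic acetyl-CoA from citrate, of the very-long-chain elongase Elovl1 (38.2 CPM per kb) and of the stearoyl-CoA desaturase Scd2 (21.1 CPM per kb). In PBS macrophages Elovl1 (50.3 CPM per kb), Acly (36.6 CPM per kb) and the sterol isomerase Ebp (26.3 CPM per kb) led. The fatty acid synthase Fasn stood far lower, at 1.71 CPM per kb in PBS microglia and 0.57 CPM per kb in PBS macrophages. The delta-6 desaturase Fads2 was the lowest member in every macrophage group, at 0.11 CPM per kb with PBS.

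Variation between mice also differed between the gates. The median coefficient of variation over the members was 15.9% in PBS microglia, 26.9% in rIL-13 microglia and 33.6% in rIL-4 microglia. It was 11.7%, 16.4% and 15.3% in the corresponding macrophage groups.

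**Figure D1:**
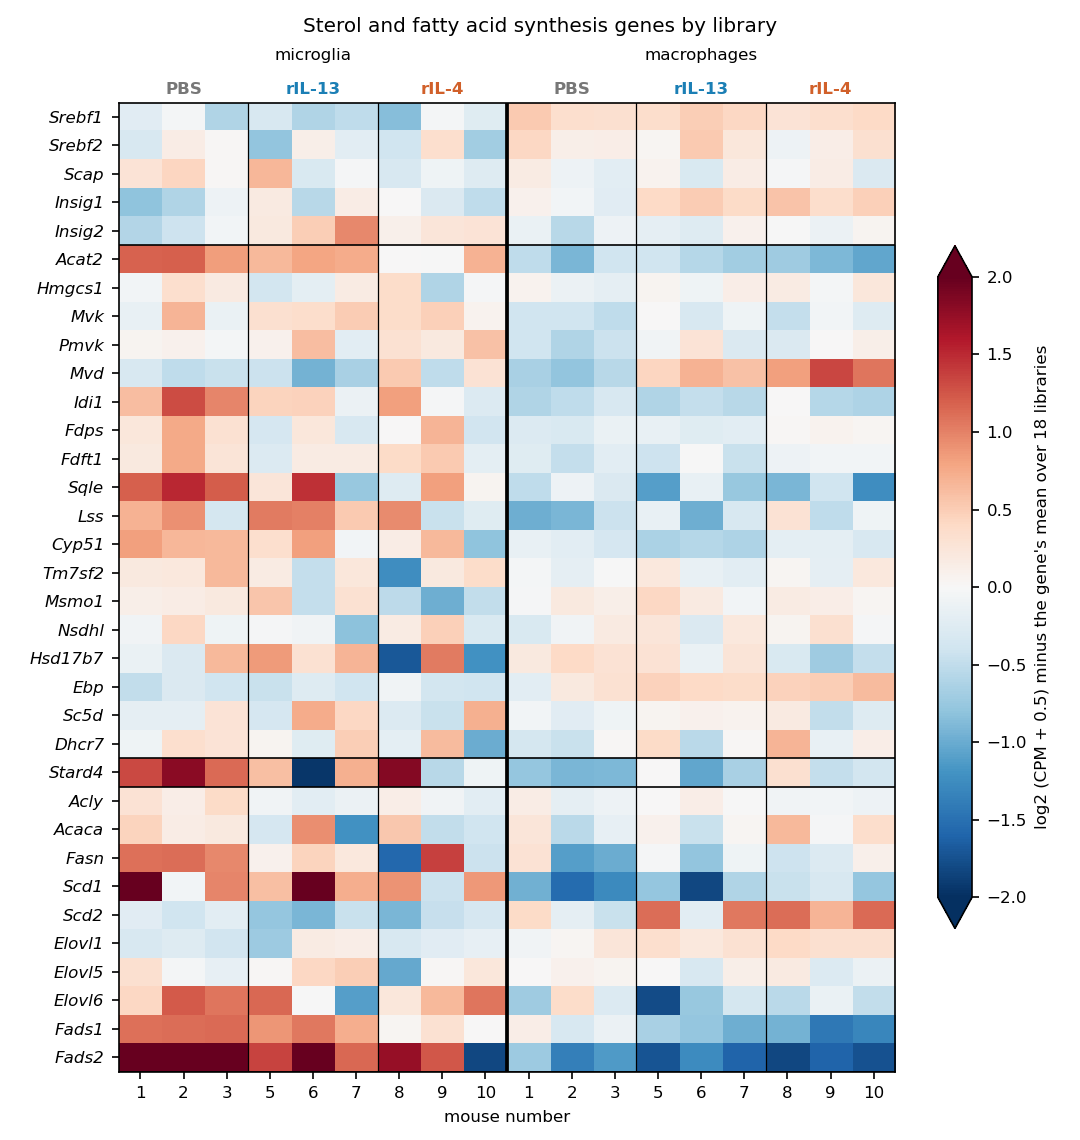
Heat map of the 34 genes (rows, grouped as regulators, sterol synthesis enzymes, Stard4 and fatty acid enzymes) in 18 libraries (columns, by mouse), as log2 (CPM + 0.5) minus the gene's mean over all libraries, with the colour scale ending at 2 in each direction. Fads1, Fads2, Acat2 and Sqle were high in PBS microglia, and Mvd was high in macrophages with either cytokine.

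Summed over the 34 members, the level in microglia was 1189.8, 1237 and 1199 CPM with PBS, 1007, 1138 and 1111 CPM with rIL-13, and 999, 1055 and 982 CPM with rIL-4. Both cytokine groups lay below all PBS microglia. In macrophages the sum was 1124, 989 and 1029 CPM with PBS, 1299, 1091 and 1275 CPM with rIL-13, and 1324, 1201 and 1302 CPM with rIL-4, so that the rIL-4 mice lay above all PBS mice and the rIL-13 mice did not. Acly, Scd2 and Elovl1 were the 3 members with the highest mean CPM in every group, and the sums are given as a description without a test.

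**Figure D2:**
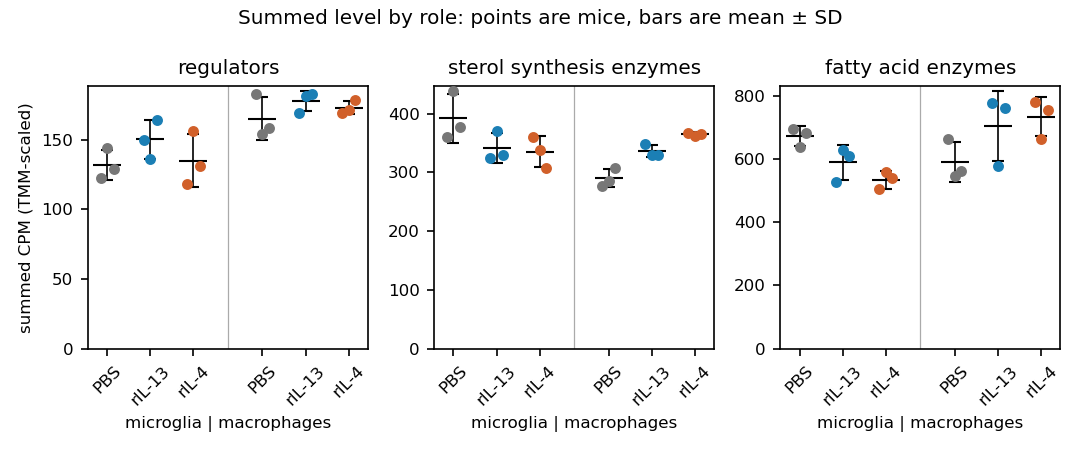
Summed TMM-scaled CPM (vertical axis) of the 5 regulators, the 18 sterol synthesis enzymes and the 10 fatty acid enzymes in each mouse (points), with mean ± SD (bars) by treatment and cell type. The fatty acid enzymes sum to 503 to 559 CPM in rIL-4 microglia and to 638 to 696 CPM in PBS microglia.

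The first question was how rIL-4 acted on macrophages. Mvd and Insig1 rose and Fads1 fell, and the remaining 30 members tested did not pass the threshold of an adjusted p under 0.05 (edgeR quasi-likelihood test with Benjamini-Hochberg adjustment over all genes tested). Fads2 was too low to be tested. The calls were thus 2 higher and 1 lower of 33 members, beside 6.77% of all 13606 genes called higher and 7.2% called lower. The median log2 fold change was 0.19 over the members and 0.02 over all genes.

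Mvd encodes mevalonate diphosphate decarboxylase, which makes isopentenyl diphosphate, the isoprene unit of all sterols, and lies at chr8:122433601-122443422 on the minus strand of GRCm38. In macrophages its level was 12.3, 11.1 and 13.1 CPM with PBS and 34.9, 50.1 and 41.4 CPM with rIL-4. The rIL-4 mice all stood above the PBS mice, by a mean of 42.1 ± 7.63 against 12.2 ± 1.00 CPM (SD, n = 3 mice each). The edgeR log2 fold change was 1.79 (SE 0.16, adjusted p = 0.000131), a 3.46-fold rise that was called under all 12 alternatives, each left-out mouse included. Gm20388, a gene model on the opposite strand that overlaps Mvd without sharing exon bases, lay at 23.5 ± 4.0 CPM with PBS and 38.7 ± 8.2 CPM with rIL-4 (SD, n = 3). Its part in the Mvd counts was not tested, and the libraries keep no strand.

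Fads1 encodes the delta-5 desaturase, which makes arachidonic and eicosapentaenoic acid from their precursors, and lies at chr19:10182888-10196877. Macrophages held 49.9, 36.5 and 42.2 CPM with PBS and 23.6, 16.6 and 18.3 CPM with rIL-4. No rIL-4 mouse reached the lowest PBS mouse. By edgeR the level fell by 1.14 on the log2 scale (SE 0.19, adjusted p = 0.00305), to 0.455 of the PBS level, and this call too held under all 12 alternatives.

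Insig1, the sterol-sensing anchor of SCAP, lies at chr5:28071363-28078662. Its macrophage level was 19.6, 17.8 and 15.7 CPM with PBS and 27.5, 23.6 and 25.9 CPM with rIL-4, without overlap. The edgeR log2 fold change was 0.53 (SE 0.14, adjusted p = 0.0291), and 7 of 12 alternatives ended this call, with adjusted p up to 0.249. They included leaving out PBS mouse 2 or 3 or rIL-4 mouse 8 or 10.

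The members next in order of p were Hsd17b7 and Scd2. Hsd17b7, a 3-keto-sterol reductase, was measured at 2.18, 2.59 and 2.36 CPM with PBS and 1.40, 0.939 and 1.18 CPM with rIL-4, a log2 difference of -1.01 by edgeR (SE 0.32, adjusted p = 0.0582). Scd2, which places the first double bond into saturated fatty acids, was measured at 181, 123 and 102 CPM with PBS and 303, 223 and 307 CPM with rIL-4, a log2 difference of 1.04 by edgeR (SE 0.34, adjusted p = 0.068). Neither group overlapped its PBS group, and DESeq2 called both members. Across the members, the rIL-4 mice lay wholly above the PBS mice for 10 of 33 and wholly below for 2, beside 17.1% and 17.6% of all genes.

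With rIL-13, Mvd rose in macrophages and no other member passed the test. The calls were 1 higher and 0 lower of 33 members, with 6 members at an unadjusted p under 0.05, beside 2.53% of all genes called higher and 1.66% called lower by edgeR. DESeq2 called 3 members. The median log2 fold change was 0.11 over the members and 0.00 over all genes.

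Mvd lay at 26.4, 31.7 and 29.4 CPM with rIL-13, again above every PBS mouse, and the edgeR log2 fold change was 1.27 (SE 0.16, adjusted p = 0.00227), a 2.41-fold rise. It was called under all 12 alternatives. Fads1 lay at 29.0, 26.4 and 22.9 CPM, below every PBS mouse, with an edgeR log2 difference of -0.71 (SE 0.18, adjusted p = 0.0604). Insig1 lay at 24.5, 26.4 and 24.1 CPM, above every PBS mouse, with an edgeR log2 difference of 0.50 (SE 0.14, adjusted p = 0.0795). DESeq2 called both.

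Cyp51, the lanosterol demethylase, and Pmvk, phosphomevalonate kinase, came next. Their edgeR log2 differences were -0.39 (SE 0.15, adjusted p = 0.192) for Cyp51 and 0.48 (SE 0.19, adjusted p = 0.200) for Pmvk. The rIL-13 macrophages lay wholly above the PBS macrophages for 6 members and wholly below for 2, beside 12.1% and 12.4% of all genes.

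Markers of several cell types differed between the treatments in the macrophage gate. The 12 monocyte-macrophage markers, which include the cytokine-induced Chil3, summed to 10342 to 13265 CPM with PBS, 64951 to 89925 CPM with rIL-13 and 92446 to 117411 CPM with rIL-4. The 12 microglia markers summed to 3508 to 4943 CPM with PBS, 1509 to 2956 CPM with rIL-13 and 758 to 1228 CPM with rIL-4. The 10 endothelial markers summed to 47.4 to 56.3 CPM with PBS, 134 to 220.1 CPM with rIL-13 and 205 to 430.2 CPM with rIL-4, and the 10 astrocyte markers to 28.0 to 32.6, 66.4 to 409 and 67.9 to 512 CPM. The fibroblast and pericyte markers went the other way with rIL-4, at 18.6 to 31.0 CPM with PBS, 19.7 to 24.8 CPM with rIL-13 and 5.7 to 8.4 CPM with rIL-4. Lower with rIL-4 than with PBS, without overlap, were also the neutrophil markers (263 to 920.2 against 1034 to 1666 CPM), the oligodendrocyte markers (130.5 to 141 against 181 to 210.5 CPM), the oligodendrocyte precursor markers (12.96 to 40.7 against 43.3 to 55.2 CPM) and the T and B cell markers (2.00 to 2.33 against 4.21 to 4.92 CPM). The neuron markers overlapped, at up to 1.14 CPM. With rIL-13 the oligodendrocyte markers were lower without overlap (135 to 147 CPM), and the neutrophil markers were at 556 and 605 CPM in mice 7 and 5 and at 3214 CPM in mouse 6. The oligodendrocyte precursor, neuron, fibroblast and pericyte, and T and B cell sums overlapped between PBS and rIL-13. The part of these differences in the changes of Mvd, Fads1 and Insig1 was not tested.

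**Figure D3:**
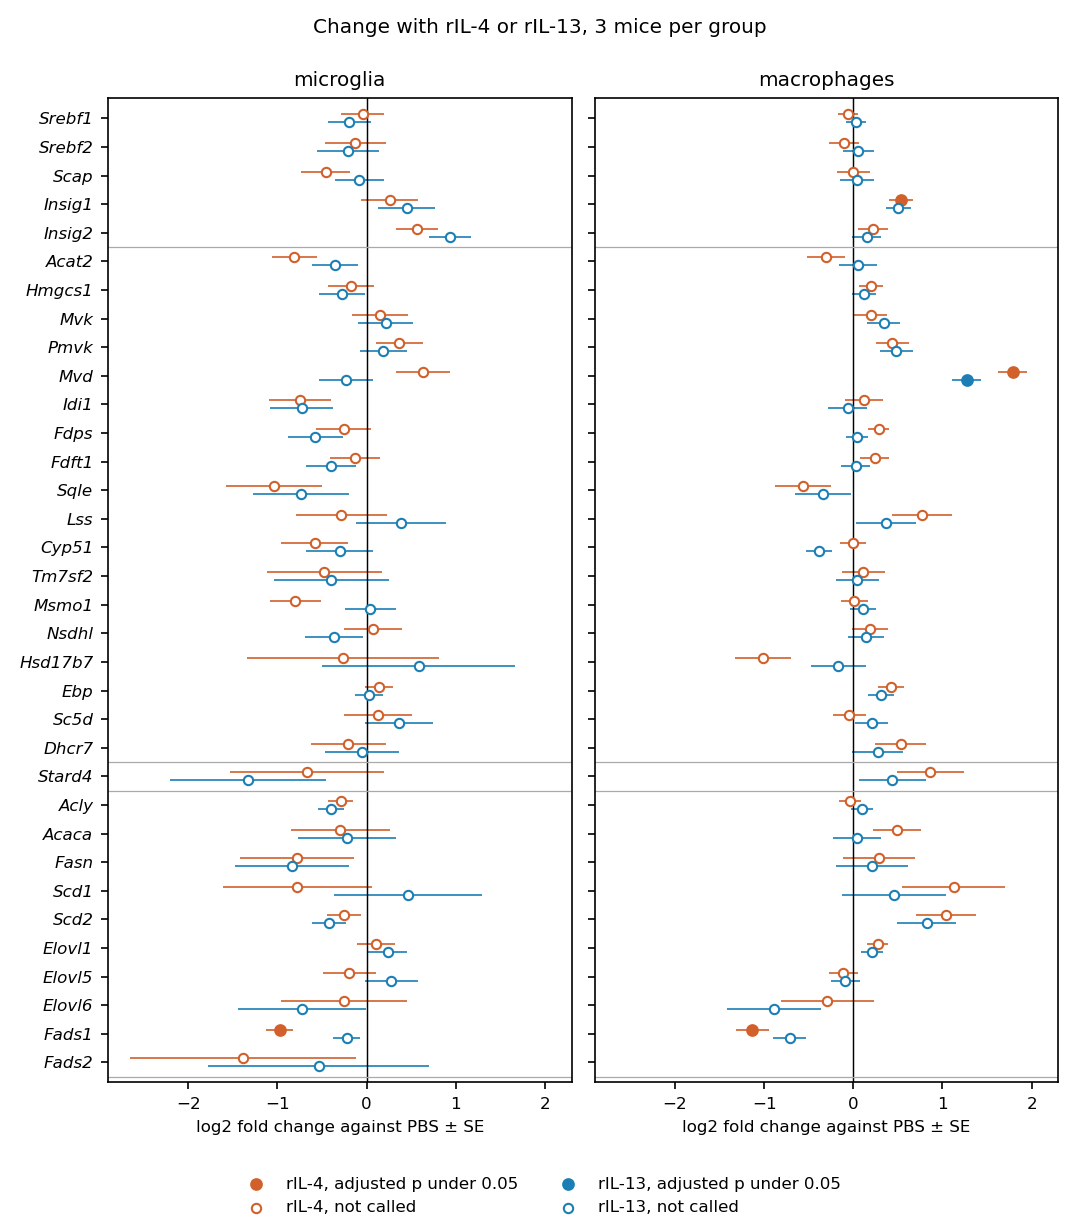
edgeR log2 fold change against PBS (horizontal axis, ± SE) of each member in microglia and macrophages, for rIL-4 (orange) and rIL-13 (blue), with filled points for an adjusted p under 0.05. Mvd stands at 1.79 and 1.27 in macrophages, Fads1 at -0.97 and -1.14 with rIL-4 in microglia and macrophages. Fads2 was not tested in macrophages.

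In microglia Fads1 fell with rIL-4, and the other 33 members tested did not pass the threshold. By edgeR 0 members were called higher and 1 lower of 34, with 4 members at an unadjusted p under 0.05, beside 1.33% of all 15566 genes called higher and 0.887% called lower. DESeq2 called 1 member. Log2 fold changes were below 0 for 25 of the 34 members, with a median of -0.26, and the median over all genes was -0.06.

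Fads1 was the steadiest member in PBS microglia, at 98.9, 99.5 and 100.3 CPM, and stood at 46.6, 56.8 and 46.1 CPM with rIL-4. The groups did not overlap, and the edgeR log2 fold change was -0.97 (SE 0.15, adjusted p = 0.0149), to 0.509 of the PBS level. The call held under every other tool, filter, scaling and choice of libraries tried, and was lost when PBS mouse 1, 2 or 3 or rIL-4 mouse 10 was left out, with adjusted p up to 0.0753. Calls over all genes went from 345 to 81, 128, 75 and 184 in these fits.

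The members next in order of p were 3 sterol genes and Insig2. Acat2, the thiolase that opens the mevalonate route, lay at 27.2, 27.4 and 21.2 CPM with PBS and 11.7, 11.6 and 19.3 CPM with rIL-4, an edgeR log2 difference of -0.81 (SE 0.25, adjusted p = 0.156). Msmo1, the sterol C4-methyl oxidase, lay at 25.9, 26.5 and 27.4 CPM with PBS and 16.5, 11.9 and 16.8 CPM with rIL-4, an edgeR log2 difference of -0.80 (SE 0.29, adjusted p = 0.206). The rIL-4 mice were below all PBS mice for both genes, without a call.

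Insig2, the paralogue of Insig1, was at 22.1, 25.0 and 32.0 CPM with PBS and 35.8, 39.5 and 40.3 CPM with rIL-4, an edgeR log2 difference of 0.57 (SE 0.24, adjusted p = 0.271). The isomerase Idi1 overlapped between groups, with an edgeR log2 difference of -0.75 (SE 0.35, adjusted p = 0.335). The rIL-4 microglia lay wholly above the PBS microglia for 2 members and wholly below for 6, beside 10.3% and 15.7% of all genes.

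Mvd, chosen here after its values were seen, was uneven in rIL-4 microglia. Its levels were 15.4, 13.5 and 14.1 CPM with PBS and 28.3, 13.6 and 23.9 CPM with rIL-4, so that 2 of 3 mice lay above the PBS range and mouse 9 lay within it. The edgeR log2 difference was 0.63 (SE 0.31, adjusted p = 0.350).

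With rIL-13 no member was called in microglia. edgeR called 0 of 34, with 2 members at an unadjusted p under 0.05, beside 0.283% of all genes called higher and 0.0835% called lower. DESeq2 called 1 member, Insig2. The median log2 fold change was -0.22 over the members and 0.00 over all genes.

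Insig2 was at 38.1, 47.0 and 65.6 CPM with rIL-13, above all PBS microglia, with an edgeR log2 difference of 0.93 (SE 0.24, adjusted p = 0.263). Acly was at 243, 218 and 259.8 CPM with PBS and 189, 172 and 183 CPM with rIL-13, an edgeR log2 difference of -0.40 (SE 0.14, adjusted p = 0.530). The Acly groups did not overlap either, though the difference did not pass the test.

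Scd2, Idi1 and the farnesyl diphosphate synthase Fdps followed. Their edgeR log2 differences were -0.42 (SE 0.19, adjusted p = 0.669), -0.73 (SE 0.35, adjusted p = 0.708) and -0.57 (SE 0.31, adjusted p = 0.789). The rIL-13 microglia lay wholly above the PBS microglia for 1 member and wholly below for 8, beside 6.81% and 9.17% of all genes.

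Marker sums differed in the microglial gate as well. The monocyte-macrophage markers, Chil3 included, summed to 849 to 1357 CPM with PBS, 5548 to 8052 CPM with rIL-13 and 12457 to 22525 CPM with rIL-4. The fibroblast and pericyte markers summed to 2795 to 3962 CPM with PBS, to 1371, 1912 and 8050 CPM with rIL-13, and to 262 to 1615 CPM with rIL-4, and the highest of these was rIL-13 mouse 6. The microglia markers summed to 6948 to 12503 CPM with PBS, to 3090.3 to 8161 CPM with rIL-13, which overlaps the PBS range, and to 2952 to 4934 CPM with rIL-4. The oligodendrocyte precursor markers summed to 242 to 270.3 CPM with PBS and 70.0 to 105 CPM with rIL-4, and the neuron markers to 13.3 to 25.4 and 6.12 to 8.97 CPM. The endothelial, astrocyte, oligodendrocyte, neutrophil, and T and B cell sums overlapped between PBS and rIL-4. With rIL-13 the oligodendrocyte markers were lower without overlap, at 194 to 288 against 295 to 355 CPM. The endothelial, astrocyte, oligodendrocyte precursor, neuron, neutrophil, and T and B cell sums overlapped between PBS and rIL-13. The part of these markers in the lower Fads1 level was not tested.

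**Figure D4:**
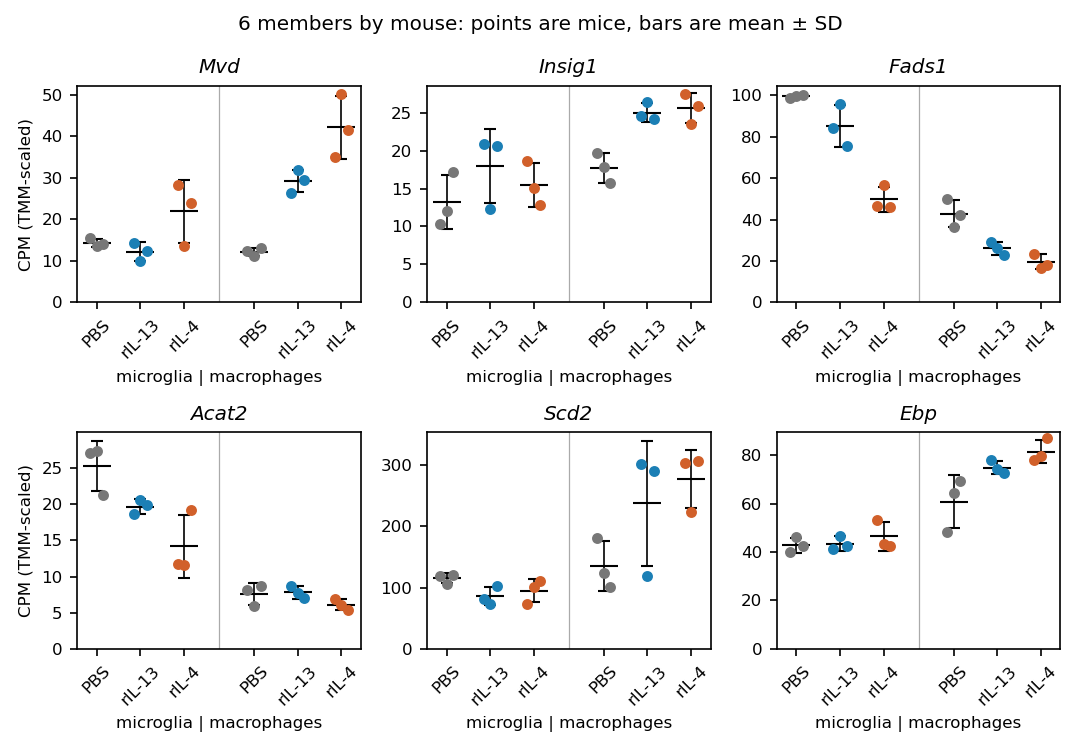
TMM-scaled CPM (vertical axis) of Mvd, Insig1, Fads1, Acat2, Scd2 and Ebp in each mouse (points), with mean ± SD (bars) for PBS, rIL-13 and rIL-4 in microglia (left of the line) and macrophages (right). Mvd in macrophages rises from 11.1 to 13.1 CPM with PBS to 34.9 to 50.1 CPM with rIL-4, and Fads1 in rIL-4 microglia sits between 46.1 and 56.8 CPM.

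The cytokines were then compared with each other. In microglia edgeR called 0 of 34 members, with 3 at an unadjusted p under 0.05, beside 0.0% of all genes called higher with rIL-4 and 0.0385% called lower. DESeq2 called 1 member, Fads1, whose edgeR log2 difference was -0.75 (SE 0.15, adjusted p = 0.143), with the rIL-4 mice below the rIL-13 mice. Msmo1 at -0.84 (SE 0.29), Mvd at 0.86 (SE 0.31), Acat2 at -0.46 (SE 0.25) and Elovl5, an elongase of polyunsaturated fatty acids, at -0.47 (SE 0.30) followed, with edgeR adjusted p from 0.352 to 0.646.

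In macrophages edgeR called 0 of 33 members between the cytokines, with 4 at an unadjusted p under 0.05, and DESeq2 called 0. Among all genes edgeR called 0.0294% higher and 0.22% lower, 34 in all, and DESeq2 called 420. The smallest p was that of Mvd, for which every rIL-4 mouse lay above every rIL-13 mouse, at an edgeR log2 difference of 0.52 (SE 0.16, adjusted p = 0.226). Hsd17b7 at -0.84 (SE 0.32), Cyp51 at 0.38 (SE 0.15), Fads1 at -0.42 (SE 0.18) and Fdps at 0.24 (SE 0.12) followed, with edgeR adjusted p from 0.351 to 0.518.

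By edgeR, more members and more of all genes were called between the cell types of the same mice than between treatments. The called members were 44.1% of those tested after PBS, 29.4% after rIL-13 and 15.2% after rIL-4. The shares of all genes are given with each count. After PBS, 12 members were higher and 3 lower in microglia than in macrophages by edgeR, of 34 tested, beside 24.5% of all 14715 genes called higher and 16.3% called lower. Fads2 is 1 of the 12 and passed the filter on low counts only through microglia, where it is high, so that 11 higher members remain without it. The median log2 fold change was 0.39 over the members and 0.04 over all genes. Microglia lay wholly above macrophages for 17 members and wholly below for 3, beside 31.2% and 22.8% of all genes. Fads2 is among these 17 too. Of the 15 called members, 7 sterol enzymes, Stard4 and 4 fatty acid enzymes, Fads2 among them, were higher, and Srebf1, Ebp and Elovl1 were lower.

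Among the sterol enzymes, Acat2 stood at 27.2, 27.4 and 21.2 CPM in PBS microglia and 8.08, 5.92 and 8.76 CPM in the macrophages of those mice, an edgeR log2 fold change of 1.70 (SE 0.22, adjusted p = 0.000425). Sqle, the squalene epoxidase that is a control point of the route after squalene, stood at 20.6, 25.7 and 20.9 CPM against 5.96, 8.11 and 7.03 CPM, an edgeR log2 fold change of 1.64 (SE 0.20, adjusted p = 0.000300). Idi1 stood at 18.8, 30.5 and 24.2 CPM against 7.75, 8.27 and 9.56 CPM, an edgeR log2 fold change of 1.49 (SE 0.23, adjusted p = 0.000921). For each of these genes every microglial library lay above every macrophage library.

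Cyp51 was 1.91-fold higher in microglia (log2 0.93, SE 0.16, edgeR adjusted p = 0.00201), Fdps 1.59-fold (log2 0.67, SE 0.19, adjusted p = 0.0198), and the lanosterol synthase Lss 2.55-fold (log2 1.35, SE 0.40, adjusted p = 0.0256). The squalene synthase Fdft1 was 1.64-fold higher (log2 0.71, SE 0.21, edgeR adjusted p = 0.0248). Fdft1 shares 774 exon bases, 18.3% of its exon length, with the far more abundant Ctsb on the opposite strand, which held 155626 to 652779 counts per library, so its reads are less certain. Acat2 has the close copy Acat3, which held 0 to 192 counts per library.

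Stard4, which carries cholesterol between membranes, stood at 11.4, 16.2 and 9.91 CPM in PBS microglia and 2.29, 2.04 and 2.06 CPM in PBS macrophages. This was 5.72-fold higher in microglia (log2 2.52, SE 0.30, edgeR adjusted p = 0.000240), with no overlap.

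The desaturases Fads1, Fads2 and Scd1 were among the fatty acid genes called. Fads2, at chr19:10062765-10101746 beside Fads1, had 286, 387 and 386 counts in PBS microglia and 20, 6 and 11 counts in PBS macrophages. No fold change is given for it, since it passed the filter through the microglial libraries alone. Scd1 stood at 11.3, 2.09 and 4.80 CPM against 0.876, 0.427 and 0.612 CPM, an edgeR log2 fold change of 3.19 (SE 0.67, adjusted p = 0.00509), with PBS mouse 1 far above the other microglial libraries. Fads1 was 2.26-fold higher in microglia (log2 1.18, SE 0.15, edgeR adjusted p = 0.000385).

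Fasn stood at 19.1, 19.5 and 17.4 CPM against 10.7, 3.75 and 4.11 CPM, an edgeR log2 fold change of 1.55 (SE 0.40, adjusted p = 0.0145). Srebf1, which favours fatty acid genes, went the other way, at 47.6, 54.3 and 36.5 CPM in microglia and 80.4, 70.8 and 69.8 CPM in macrophages, an edgeR log2 fold change of -0.71 (SE 0.17, adjusted p = 0.00928). Ebp (log2 -0.53, SE 0.16, edgeR adjusted p = 0.0250) and Elovl1 (log2 -0.43, SE 0.12, adjusted p = 0.0199) were lower as well. No library of one cell type reached the range of the other for Srebf1.

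With a replicate block for the mouse, Lss lost its call after PBS and Elovl6, an elongase of saturated fatty acids, gained one. Fdps, Fdft1, Fasn and Ebp lost their calls without mouse 2 and without mouse 3, Lss without mouse 1 or 2, Srebf1 without mouse 1 or 3, and Elovl1 without mouse 3. A total of 9 members, with 4354 of 15048 genes, were called when mouse 3 was left out. The fibroblast and pericyte markers summed to 2795 to 3962 CPM in PBS microglia and 18.6 to 31.0 CPM in PBS macrophages, with all 12 genes detected in both gates. The 10 endothelial markers summed to 1180 to 2533 CPM and 47.4 to 56.3 CPM, and the 12 oligodendrocyte markers to 295 to 355 CPM and 181 to 210.5 CPM, while the median of Mog, a defining oligodendrocyte gene, was 0 CPM in both. The astrocyte markers summed to 192 to 317 CPM in PBS microglia and 28.0 to 32.6 CPM in PBS macrophages, the oligodendrocyte precursor markers to 242 to 270.3 and 43.3 to 55.2 CPM, the neuron markers to 13.3 to 25.4 and 0.854 to 1.14 CPM, and the T and B cell markers to 5.69 to 17.1 and 4.21 to 4.92 CPM. The neutrophil markers were higher in macrophages, at 1034 to 1666 against 168 to 244 CPM. Both cell types were sorted by CD45, CD11b and F4/80. The part of these transcripts in the microglial levels was not tested.

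**Figure D5:**
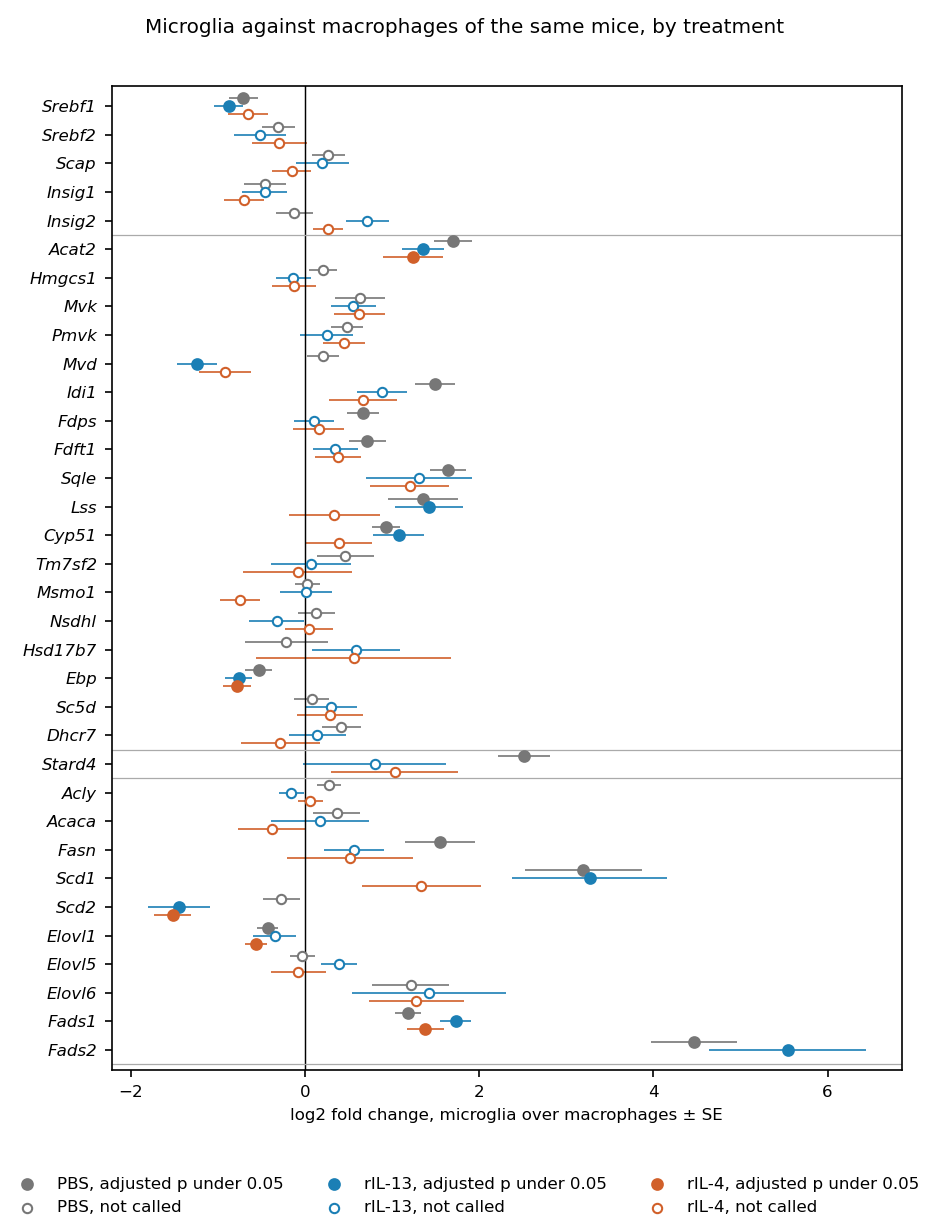
edgeR log2 fold change of microglia over macrophages (horizontal axis, ± SE) of each member after PBS (grey), rIL-13 (blue) and rIL-4 (orange), with filled points for an adjusted p under 0.05. Mvd moves from 0.21 after PBS to -1.24 with rIL-13, while Fads1 and Acat2 stay above 1 in all 3 treatments. Fads2 was not tested with rIL-4, and after PBS and rIL-13 it passed the filter through microglia alone.

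After rIL-13, 6 members were higher and 4 lower in microglia by edgeR, beside 17.2% of all genes called higher and 9.46% called lower. Without Fads2, which again passed the filter through microglia alone, 5 were higher. Fads1 (log2 1.73, SE 0.18, edgeR adjusted p = 0.000738), Acat2 (log2 1.35, SE 0.24, adjusted p = 0.00554), Lss (log2 1.42, SE 0.39, adjusted p = 0.0308), Scd1 (log2 3.27, SE 0.89, adjusted p = 0.0317) and Cyp51 (log2 1.07, SE 0.30, adjusted p = 0.0324) were higher. For Fads2 there were 171, 442 and 173 counts in microglia and 1, 8 and 3 counts in macrophages. Scd1 stood at 3.58, 17.5 and 3.96 CPM in microglia and 1.08, 0.264 and 1.28 CPM in macrophages, so that mouse 6 was the highest of the microglial and the lowest of the macrophage libraries. Its log2 fold change ranged from 1.66 to 4.0 over the alternatives. The lowest macrophage count of Scd1 was 9, so the filter of at least 10 counts in every library removed it. Srebf1 (log2 -0.88, SE 0.16, edgeR adjusted p = 0.00666), Mvd (log2 -1.24, SE 0.23, adjusted p = 0.00699), Ebp (log2 -0.76, SE 0.15, adjusted p = 0.00939) and Scd2 (log2 -1.45, SE 0.36, adjusted p = 0.0207) were lower.

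With the mouse as a replicate block Lss, Scd1 and Cyp51 lost their calls and Insig2 gained one. The calls of those 3 were also lost without mouse 5, 6 or 7, and those of Ebp and Scd2 without mouse 5 or 7. When mouse 7 was left out Fads1 was the only member called, and calls over all genes went from 3710 of 13906 to 1197 of 14179. Without mouse 5 the calls were 5 members and 2349 of 14322 genes. Scd2 stood at 81.4, 73.9 and 102 CPM in rIL-13 microglia and 303, 119.6 and 291 CPM in rIL-13 macrophages, with mouse 6 apart from the other two.

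After rIL-4, 2 members were higher and 3 lower in microglia by edgeR, beside 13.4% of all genes called higher and 9.97% called lower. Fads1 (log2 1.38, SE 0.21, edgeR adjusted p = 0.00335) and Acat2 (log2 1.24, SE 0.34, adjusted p = 0.0344) were higher. Scd2 (log2 -1.52, SE 0.21, edgeR adjusted p = 0.00205), Ebp (log2 -0.79, SE 0.16, adjusted p = 0.0106) and Elovl1 (log2 -0.56, SE 0.13, adjusted p = 0.0162) were lower. Acat2 lost its call with the mouse as a replicate block, with all genes with any count and without mouse 8, 9 or 10. Elovl1 lost its call when any 1 of these mice was left out, and Ebp without mouse 9 or 10. Without mouse 8, 9 or 10 the number of members called was 3, 2 or 2, and the number of all genes called went from 3174 to 2144, 2548 or 1798. DESeq2 called 10 of 33 members and 3971 of 13576 genes. Fads2 had 217, 191 and 0 counts in microglia and 0, 3 and 1 counts in macrophages and was not tested.

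Fads1, Acat2 and Ebp were therefore called in the same direction in all 3 treatments, Fads1 and Acat2 higher and Ebp lower in microglia. Of these, Fads1 kept its call under every alternative run in all 3 treatments. Ebp stood at 39.9, 46.0 and 42.5 CPM in PBS microglia and 48.4, 64.5 and 69.3 CPM in PBS macrophages. With rIL-4 it stood at 53.3, 43.4 and 42.6 CPM in microglia and 77.8, 79.6 and 87.0 CPM in macrophages, and the cell types did not overlap in either treatment.

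An interaction term over all 18 libraries asked whether microglia and macrophages responded differently to a cytokine. For rIL-4 edgeR called 0 of 34 members, with 3 at an unadjusted p under 0.05, beside 0.49% of all 16535 genes called higher and 0.502% called lower. DESeq2 called 1 member, Mvd. Its response was 1.18 log2 units smaller in microglia by edgeR (log2 -1.18, SE 0.34, adjusted p = 0.124), followed by Scd2 (log2 -1.31, SE 0.41, adjusted p = 0.171), Msmo1 (log2 -0.83, SE 0.32, adjusted p = 0.281), Idi1 (log2 -0.88, SE 0.43, adjusted p = 0.420) and Scd1 (log2 -1.93, SE 1.08, adjusted p = 0.527).

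For rIL-13 edgeR again called 0 of 34, with 4 at an unadjusted p under 0.05, beside 0.00605% of all genes called higher and 0.0181% called lower. DESeq2 called Mvd alone. The edgeR interaction of Mvd was -1.50 (SE 0.34, adjusted p = 0.284), followed by Scd2 (log2 -1.23, SE 0.41, adjusted p = 0.579), Acly (log2 -0.49, SE 0.18, adjusted p = 0.638), Insig2 (log2 0.79, SE 0.29, adjusted p = 0.676) and Fads1 (log2 0.49, SE 0.23, adjusted p = 0.854). A smaller Mvd response in microglia was therefore not established by the edgeR test, although the rise of Mvd was called in macrophages and not in microglia.

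In all, the main edgeR fits called 18 of the 34 members in at least 1 of the 11 comparisons and 16 in none. Fads2 is counted among the 18 only for the 2 cell type comparisons in which it passed the filter through microglia alone, which leaves 17 without it. By the main edgeR fits Srebf2, Scap and Insig2 among the regulators were called nowhere. The same held for Hmgcs1, Mvk, Pmvk, Tm7sf2, Msmo1, Nsdhl, Hsd17b7, Sc5d and Dhcr7 among the sterol enzymes. Of the fatty acid enzymes, Acly, Acaca, Elovl5 and Elovl6 had no call. Among these uncalled members, DESeq2 called Insig2, Pmvk, Msmo1, Hsd17b7 and Elovl6 in at least 1 comparison. Fads1 had the most edgeR calls, 5, followed by Acat2, Mvd and Ebp with 3 each.

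A list of 65 further genes of sterol and lipid metabolism gives the surroundings. In rIL-4 macrophages 7 were called higher and 6 lower by edgeR, of 55 tested, beside 6.77% and 7.2% of all genes. Mid1ip1, which activates acetyl-CoA carboxylase, fell by 1.55 on the log2 scale (SE 0.15, edgeR adjusted p = 0.000222), and the oxysterol-binding protein gene Osbp rose by 1.53 (SE 0.28, adjusted p = 0.00589). Mlxipl, which encodes the carbohydrate-responsive factor ChREBP, fell by 2.14 (SE 0.43, edgeR adjusted p = 0.00907), and Nus1, of dolichol synthesis, rose by 0.74 (SE 0.16, adjusted p = 0.0125).

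Mid1ip1 was also called lower in rIL-13 macrophages (log2 -0.99, SE 0.15, edgeR adjusted p = 0.00638), in rIL-4 microglia (log2 -0.93, SE 0.15, adjusted p = 0.0171) and in rIL-13 microglia (log2 -0.92, SE 0.15, adjusted p = 0.0435). Of the 59 listed genes tested in microglia, 2 were higher and 2 lower with rIL-4 and 0 higher and 1 lower with rIL-13, beside 1.33% and 0.887% of all genes with rIL-4 and 0.283% and 0.0835% with rIL-13. In rIL-13 macrophages, where 2.53% and 1.66% of all genes were called, 0 were higher and 2 lower, the other being the dehydratase gene Hacd2 (log2 -0.72, SE 0.17, edgeR adjusted p = 0.0418).

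Between the cell types after PBS, 15 listed genes were higher and 16 lower in microglia of 57 tested, beside 24.5% and 16.3% of all genes. Soat1 (log2 -2.12, SE 0.11, edgeR adjusted p = 5.08e-06), which esterifies cholesterol for storage, the exporter Abcg1 (log2 -1.69, SE 0.11, adjusted p = 1.32e-05) and Nr1h3 (log2 -3.12, SE 0.24, adjusted p = 2.91e-05), which encodes the sterol-sensing receptor LXR alpha, were lower. The elongase gene Elovl7 (log2 4.16, SE 0.36, edgeR adjusted p = 4.61e-05) was higher. After rIL-13, 8 were higher and 11 lower of 57, beside 17.2% and 9.46% of all genes, and after rIL-4, 6 were higher and 14 lower of 55, beside 13.4% and 9.97%.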

How the data were processed

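The authors aligned the SMART-seq2 reads with STAR 2.5.3a to GRCm38 and estimated expression with RSEM 1.3.0, according to the submitters' processing notes. The deposited values are expected counts per gene. Any fraction in these expected counts was dropped here before testing. Depth per library was 35961305 to 45849829 counts. Counting error was not set against the spread between mice, and genes such as Fads2 in macrophages held few counts. The libraries keep no strand, and RSEM divides reads between near-identical genes.

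Counts were scaled by TMM, genes were filtered with filterByExpr, and edgeR 4.0.16 (R 4.3.3) quasi-likelihood tests were run with Benjamini-Hochberg adjustment over all genes tested and a threshold of 0.05. The cytokine comparisons used the 9 libraries of 1 cell type, as the study analysed the cell types separately, the cell type comparisons used the 6 libraries of 1 treatment, and the interactions used all 18. The fits within each cell type, between the cell types after PBS and over all 18 libraries were tested on simulated data. Those between the cell types after rIL-13 and rIL-4 were not. Levels are CPM with TMM factors over the 18 libraries, and per kilobase values use GENCODE exon length. In the heat map 0.5 was added before the log2.

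Each mouse gave a microglial and a macrophage library. Deviations of the 2 libraries of a mouse from their group means correlated by 0.0485 to 0.205 over the 9 mice, and a replicate block for the mouse was an alternative. The others were DESeq2 1.42.0, its size factors in edgeR, all genes with any count, at least 10 counts in every library, all 18 libraries in 1 model, only the 6 libraries compared, and leaving out each mouse. Members were named with statistics where called. Where fewer than 5 were called, the 5 with the smallest p were named. The further genes were counted, with at most 4 named by p. Some items are not reported here. The members and gene lists were chosen with earlier results of these data known. Motifs were searched in RefSeq windows of GRCm38.p6, from 250 bases before to 50 after each start.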

Additional observations from a re-analysis of the deposited data

How the results depend on the processing

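Alternatives were run for the members called in a comparison or, where fewer than 5 were called, for the 5 with the smallest p, and none of these changed direction. The only medians to change sign did so when 1 mouse was left out. The median between the cytokines in microglia went from -0.08 to 0.038 without rIL-13 mouse 6 and to 0.053 without rIL-4 mouse 10, and that between the cell types after rIL-4 from 0.16 to -0.020 without mouse 9. The number of members called with rIL-4 in microglia went from 1 to 2 with all 18 libraries in 1 model. With rIL-13 in microglia and between the cytokines in microglia it went from 0 to 1 with DESeq2 and with all 18 libraries. With rIL-4 in macrophages it went from 3 to 5 with DESeq2. With rIL-13 in macrophages it went from 1 to 3 with DESeq2 and to 2 with all genes with any count, with all 18 libraries and with only the 6 libraries compared. Between the cell types after rIL-4 it went from 5 to 10 with DESeq2, and for the interactions with rIL-4 and rIL-13 from 0 to 1 with DESeq2. The cause was not tested. Over all genes the calls also moved, with rIL-4 in microglia from 345 to 1215 with DESeq2 and 949 with all 18 libraries, with rIL-13 in microglia from 57 to 322 and 172, with rIL-4 in macrophages from 1900 to 2660 and 1053, and with rIL-13 in macrophages from 570 to 1163 and 257. With DESeq2 they went from 6 to 557 between the cytokines in microglia and from 34 to 420 in macrophages, from 3174 to 3971 between the cell types after rIL-4, and from 164 to 689 and 4 to 154 in the interactions with rIL-4 and rIL-13. The median interaction of rIL-4 went from -0.39 to -0.30 with all genes with any count.

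With the mouse as a replicate block, the paired fits called 15 members after PBS (Lss lost, Elovl6 gained), 8 after rIL-13 (Lss, Scd1 and Cyp51 lost, Insig2 gained) and 4 after rIL-4 (Acat2 lost), and 0 in the interactions. The median difference between the cell types after rIL-4 went from 0.16 to 0.016. Within a cell type the treatments came from different mice, so no pairing applies there.

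Leaving out 1 mouse at a time also lowered the calls over all genes, from 1900 to 1188, 1234, 1041 and 1102 with rIL-4 in macrophages without PBS mouse 1, 2 or 3 or rIL-4 mouse 10, from 570 to 265, 267, 199, 363 and 264 with rIL-13 in macrophages without PBS mouse 1, 2 or 3 or rIL-13 mouse 5 or 7, from 57 to 24, 25, 22 and 27 with rIL-13 in microglia without PBS mouse 1, 2 or 3 or rIL-13 mouse 7, and from 164 to 30, 48, 18, 76, 109 and 52 in the rIL-4 interaction without mouse 1, 2, 3, 8, 9 or 10. For the members it gave 0 to 1 members called with rIL-4 in microglia, 2 to 3 with rIL-4 and 1 to 2 with rIL-13 in macrophages, and 9 to 13, 1 to 7 and 2 to 3 between the cell types after PBS, rIL-13 and rIL-4. The median log2 difference of the members ranged from -0.29 to -0.15 with rIL-4 and from -0.27 to -0.16 with rIL-13 in microglia, and from -0.16 to 0.053 between the cytokines there. In macrophages it ranged from 0.11 to 0.20 with rIL-4, from 0.010 to 0.18 with rIL-13 and from 0.0048 to 0.10 between the cytokines. Between the cell types it ranged from 0.22 to 0.48 after PBS, from 0.21 to 0.40 after rIL-13 and from -0.020 to 0.28 after rIL-4, and for the interactions from -0.52 to -0.29 with rIL-4 and from -0.34 to -0.13 with rIL-13.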
